A study of Mus musculus with 8 samples.

Results

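The genes described here are 48 mitosis and spindle genes, whose products drive a cell from mitotic entry through chromosome segregation to the splitting of the daughter cells. They were chosen by name, from a list drawn up with earlier results of these data known. Of the 21567 named genes on the 1-colour Agilent mouse array, all 48 were found, through 88 of the 41174 probes that are not controls. A gene with several probes (28 of the 48) was represented by the brightest. The chosen probe of each of the 48 genes was well above background on all 8 arrays, and none was saturated.

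The study grew bone marrow of 10-week-old C57BL/6 mice in medium with IL-7, which makes precursors of B cells multiply, and measured the RNA of the whole culture after 5 days. It had 4 groups of 2 cultures: Bob1-/- mice, labelled Bob1 knockout here, Bob1+/+ mice, called Bob1 wild-type, mir-146a-/- mice, called miR-146a knockout, and C57BL/6Ncrl mice, called BL6 wild-type. In every group, culture A came from female and culture B from male mice. Bob1 is a coactivator that Oct transcription factors use in B cells, and miR-146a is a microRNA known for damping NF-kB signalling. The labels name the 2 cultures of each group biological duplicates, with no count of the mice behind each, so a p-value here reflects variation among cultures. That variation is taken from the differences between cultures A and B within the 4 groups. It therefore includes differences between female and male, and in BL6 wild-type and miR-146a knockout also between array slides. Precision is limited by having 2 arrays per group. Pou2af1, which encodes Bob1, had levels of 2.71 and 2.82 on the knockout arrays and 6.40 to 6.72 on the other 6, as the labels say, and no probe carries the name of miR-146a, so that knockout was not checked. The labels do not mention sorting of the cultures, so fewer cells of a type and less RNA per cell cannot be told apart in any value below.

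Mitosis genes form a late wave of the cell cycle. The cyclins B and A activate Cdk1 for entry, Polo and Aurora kinases order the events that follow, kinetochores tie chromosomes to the spindle, and a checkpoint holds the anaphase-promoting complex back until every chromosome is attached. Transcription of many of these genes is held down in resting cells by the DREAM complex and raised in G2 and M phase by B-Myb and FoxM1, which act at promoters through a cell cycle homology region (CHR) and nearby CCAAT boxes, the latter bound by NF-Y. Pre-B cells in IL-7 are known to cycle fast, and cycling slows as the cytokine is removed and they mature.

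These promoter elements are shown first because they are a feature the genes share that played no part in choosing them. RefSeq promoter sequences of assembly GRCm38.p6, from 250 bases before to 50 bases after a gene's start, were matched by symbol for 40 of the 48 genes. The 8 without a match were Aurkb, Ccna2, Cdc25c, Incenp, Kif20a, Smc4, Spc24 and Tpx2. The CHR letters TTTGAA, searched on both strands, were present in 29 of the 40 (72.5%), against 20.2% of all 27025 genes in the table and 18.5% of its protein-coding genes. CCAAT, also searched on both strands, was present in 32 of the 40 (80%), against 41.1% of all genes. Both motifs were present in 26 of the 40 (65%), against 7.97% of all genes. The CHR match lay near the start in most: 26 of the 40 (65%) had one in the window from 50 bases before the start to the window's end, against 5.72% of all genes. The E2F letters TTCCCGC or TTGGCGC were present in 7 of the 40 (17.5%), against 7.79% of all genes, and the CHR-like letters TTTAAA in 9 of the 40 (22.5%), against 14.9%. The E2F letters TTGGCGC can share letters with a CCAAT box read on the other strand, and a match is a description of letters, not a measured binding site.

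The stretches below, 110 bases before to 20 bases after the start and read 5′ to 3′ on the gene's strand, show 5 genes that hold TTTGAA and CCAAT. Capitals mark these letters, read on either strand. They are Cdk1, the kinase of mitotic entry (chr10:69352893-69353022, minus strand), its partner cyclin B2, Ccnb2 (chr9:70421535-70421664, minus strand), Cdc20, the activator of the anaphase-promoting complex (chr4:118437324-118437453, minus strand), the kinetochore gene Cenpf (chr1:189688067-189688196, minus strand) and Espl1, which encodes separase, the protease that opens cohesin (chr15:102296183-102296312, plus strand). The CHR letters begin at positions -71 and -15 in Cdk1, 5 in Ccnb2, -18 in Cdc20, 3 in Cenpf and -27 in Espl1, where the start base is position 1.
Cdk1: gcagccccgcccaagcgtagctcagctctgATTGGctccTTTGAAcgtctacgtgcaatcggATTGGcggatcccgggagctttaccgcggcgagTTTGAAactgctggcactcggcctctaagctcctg
Ccnb2: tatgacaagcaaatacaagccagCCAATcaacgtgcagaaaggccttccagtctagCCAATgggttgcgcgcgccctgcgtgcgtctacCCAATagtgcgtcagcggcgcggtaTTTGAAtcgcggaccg
Cdc20: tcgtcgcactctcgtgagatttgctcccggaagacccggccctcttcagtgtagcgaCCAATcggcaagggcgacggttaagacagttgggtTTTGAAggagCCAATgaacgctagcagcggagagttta
Cenpf: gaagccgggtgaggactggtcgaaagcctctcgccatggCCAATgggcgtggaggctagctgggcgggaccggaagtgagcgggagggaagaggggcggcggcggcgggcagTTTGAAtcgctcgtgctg
Espl1: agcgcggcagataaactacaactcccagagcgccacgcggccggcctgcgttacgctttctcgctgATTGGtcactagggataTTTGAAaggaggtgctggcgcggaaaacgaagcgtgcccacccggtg

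The next 3 stretches hold CCAAT boxes but no TTTGAA in the whole window. They are Ccnb1, which encodes cyclin B1 (chr13:100786467-100786596, minus strand), Cks2, a small subunit that binds Cdk1 (chr13:51645122-51645251, plus strand), and Cdc25b, a phosphatase that activates Cdk1 (chr2:131186838-131186967, plus strand). Cks2 and Cdc25b are shown because they lie near the upper and at the lower end of the Bob1 comparison described below.
Ccnb1: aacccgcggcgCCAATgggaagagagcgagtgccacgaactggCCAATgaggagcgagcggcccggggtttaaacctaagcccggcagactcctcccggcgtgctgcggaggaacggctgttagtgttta
Cks2: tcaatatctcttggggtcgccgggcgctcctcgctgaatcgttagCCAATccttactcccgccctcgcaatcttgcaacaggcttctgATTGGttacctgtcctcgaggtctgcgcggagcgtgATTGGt
Cdc25b: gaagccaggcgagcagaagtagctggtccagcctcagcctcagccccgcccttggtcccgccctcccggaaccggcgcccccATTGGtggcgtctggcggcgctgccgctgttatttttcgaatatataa

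In Bob1 knockout cultures the mitosis genes lay above Bob1 wild-type cultures almost without exception, by a modest amount. Of the 48, 47 had a log2 fold change above 0, where 62.4% of all features did, and Cdc25b (-0.08) was the exception. Their median was 0.54, against 0.12 over all 17479 features tested, and 11.8% of all features lay above the genes' median. Only 3 of the 48 passed the threshold one by one, an adjusted p under 0.05 in limma's fit over all features. Aurkb, Spc24 and Cenpf rose and 0 fell, while 3.52% of all features rose, 3.28% fell and 6.8% changed in either direction. At an unadjusted p under 0.05, 38 of the 48 were higher and 0 lower, where 18.1% of all features were higher and 10.7% lower. Both knockout arrays lay above both wild-type arrays in 44 of the 48 (41% of all features did so), and above all 6 other arrays in 39 (27.1% of all features). The count of 3 rests on the whole design: it was 0 without either Bob1 wild-type array, without either Bob1 knockout array and without either miR-146a knockout array, and 2 (Ccna2 and Spc24) without either BL6 wild-type array. Other choices raised it, to 7 with the mean over the probes of a gene, 8 in the authors' deposited table, 11 with normexp and quantile normalization and 11 with only probes detected on all arrays. In these settings, in that order, 3.88%, 3.58%, 4.62% and 5.09% of all features rose. With a term for sex, which the culture letter carries, 15 of the 48 passed and 5.64% of all features rose. These were Aurkb, Spc24 and Cenpf with Birc5, Bub1, Bub1b, Ccna2, Cenpa, Cenpe, Cks2, Ect2, Kif4, Nuf2, Plk1 and Smc2, and the calls by role below are those without that term.

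The probe that stands for a gene also mattered. In 7 of the 26 genes with several detected probes, the probes' log2 fold changes differed by over 0.5. The used and the most different probe read 0.24 and 0.88 for Anln, 0.51 and 1.17 for Cdca8, 0.54 and 1.33 for Kif11, 0.35 and 1.17 for Kif23, 0.58 and 0.96 for Ncapd2, 0.31 and 0.90 for Nusap1, and 0.72 and -0.14 for Bub1. The probe used was the brighter one in each pair, and its value was the lower in 6 of them and the higher in Bub1. In Ncapd2 the difference of over 0.5 lies between the unused probes, which read 0.45 and 0.96.

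**Figure D1:**
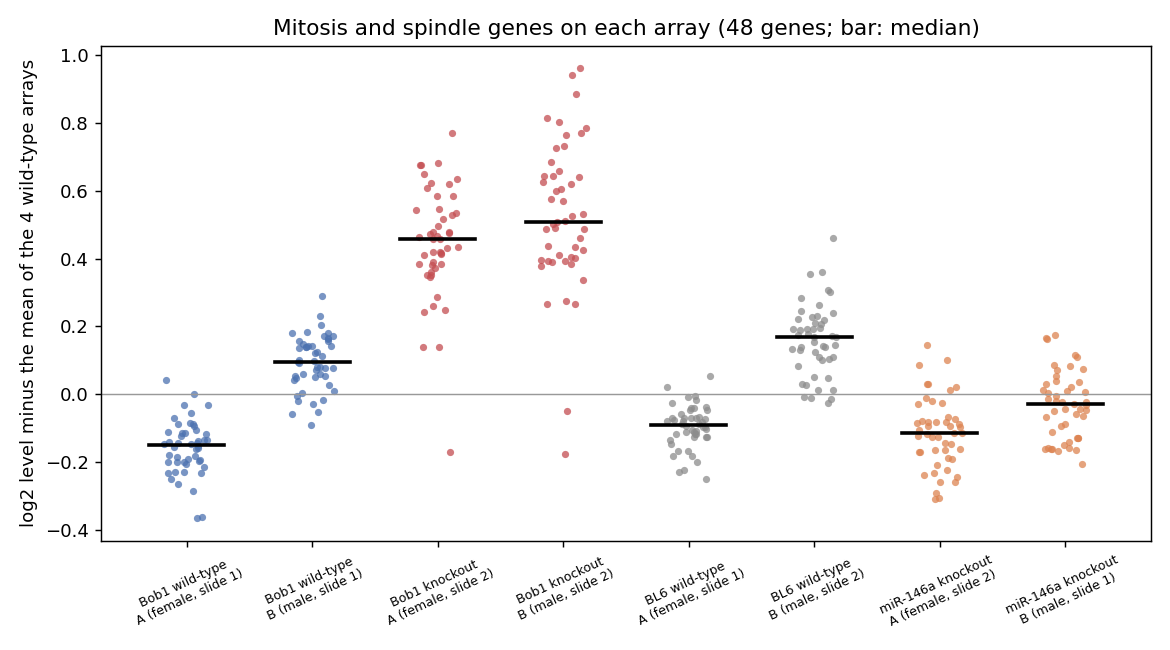
Each point is 1 of the 48 mitosis and spindle genes on 1 array, as its log2 level minus its mean over the 4 wild-type arrays, and the bar is the median over the genes. The clouds of both Bob1 knockout arrays lie highest, and in every group the median of the female array A lies below that of the male array B.

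The whole group's position on each array was as follows. The median level of the 48 genes, in log2 units relative to the array's 75th percentile, was 3.82 and 3.93 on the Bob1 knockout arrays A and B. It was 3.14 and 3.32 in Bob1 wild-type, 3.18 and 3.48 in BL6 wild-type, and 3.14 and 3.23 in miR-146a knockout cultures. The Bob1 knockout arrays were therefore the highest of the 8, and the 2 wild-type groups overlapped.

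The slides are laid out unevenly across this comparison, per the file headers. Slide 1 held both Bob1 wild-type arrays, BL6 wild-type A and miR-146a knockout B, and slide 2 held both Bob1 knockout arrays, BL6 wild-type B and miR-146a knockout A. With the slide as a block, 0 of the 48 were called, where only 0.126% of all features rose and 0.595% fell. Of the 48, 47 stayed above 0 and 10 had an unadjusted p under 0.05. The genes' median exceeded that of all features by 0.38, against 0.42 without the block. Set against the other 2 arrays of slide 2 alone, the Bob1 knockout arrays again had 47 of 48 above 0 and 0 called. There, 0.378% of all features rose and 0.887% fell, and the genes' median exceeded that of all features by 0.43. The Bob1 knockout arrays were also the dimmest, with a 75th percentile of 494 and 622 intensity units against 627 to 782 on the other arrays.

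Other measured features moved together with the mitosis genes. Markers of most other marrow cells had lower values in the knockout cultures: the median log2 fold change was -0.92 over 10 neutrophil markers, -1.08 over 9 monocyte and macrophage markers, -1.04 over 10 T and NK cell markers, -0.88 over 6 megakaryocyte markers, -0.78 over 4 mast cell and basophil markers, -0.46 over 6 dendritic cell markers and -0.99 over 8 stroma and endothelium markers. Of these, the neutrophil elastase gene Elane, the cytotoxic gene Prf1 and the endothelial gene Cdh5 passed the threshold. Of all features, 3.28% fell and 3.52% rose, the shares to set beside each count of markers in this paragraph. The 6 erythroid markers had a median of 0.12. All 10 neutrophil markers were still well above background on every array, and the log2 of their summed level ran from 9.66 to 9.97 in Bob1 knockout and from 9.82 to 10.2 in Bob1 wild-type cultures. The 9 monocyte markers, also all above background, summed to 7.70 to 8.49 in the knockout and to 8.49 to 8.68 in the wild-type. The 7 mature B cell markers summed to 2.50 to 2.61 in the knockout and to 5.14 to 5.25 in the wild-type, and 5 of the 7 were above background on both knockout arrays, where 4 fell and Cd22 rose. All 15 markers of B cell precursors were above background on all 8 arrays, with sums of 9.81 to 10.0 in the knockout and 9.63 to 9.86 in the wild-type and a median log2 fold change of 0.16. Of these 15, Rag2 (1.08), Cd24a (1.08) and Il7r (0.80), which encode a recombinase subunit, a surface antigen and the IL-7 receptor chain, rose, and Cd79b, a signalling chain of the B cell receptor, fell by 1.39 on the log2 scale. Of 5 plasma cell markers, Irf4 (1.09) and Sdc1 (1.07) rose and Jchain fell by 3.77 on the log2 scale. The median of the 5 was -0.66, while their sum was 4.21 to 4.34 in the knockout and 3.91 to 3.95 in the wild-type. The part of these shifts in the result was not tested.

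**Figure D2:**
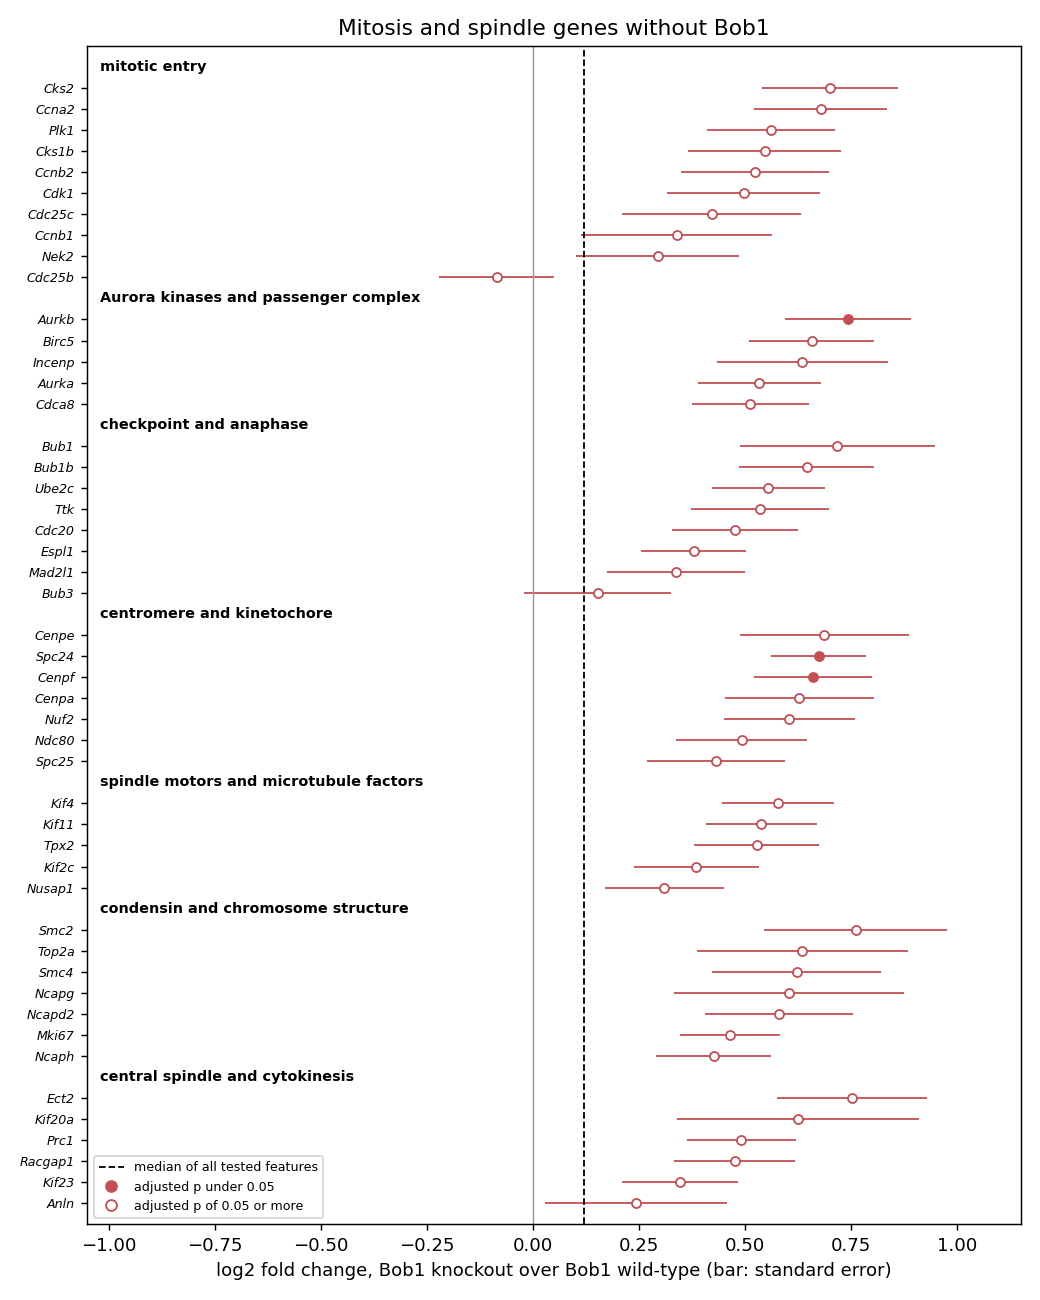
Each point is the log2 fold change of 1 gene in Bob1 knockout over Bob1 wild-type cultures (2 arrays each), the bar is limma's standard error, and genes are grouped by role. Filled points mark the 3 genes past the threshold (Aurkb, Cenpf, Spc24), and all points but Cdc25b (-0.08) lie above the dashed line at the median of all tested features, 0.12.

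Each count by role below is to be set beside all features, of which 62.4% lay above 0, 3.52% rose and 3.28% fell. Among the 10 genes of mitotic entry, 0 passed the threshold, 9 lay above 0 and the median was 0.51. Cks2 had levels of 5.13 and 5.42 in Bob1 wild-type and 5.90 and 6.04 in Bob1 knockout cultures, with BL6 wild-type at 5.30 and 5.59 and miR-146a knockout at 5.24 and 5.33. The knockout arrays thus lay above all others, and the log2 fold change was 0.70 (SE 0.16, limma adjusted p = 0.0542). Ccna2, cyclin A2, which acts in S phase and at entry, had 4.52 and 4.65 in Bob1 wild-type and 5.28 and 5.25 in knockout cultures, a log2 fold change of 0.68 (SE 0.16, limma adjusted p = 0.0556). Plk1, the Polo kinase, differed by 0.56 and Cks1b, the sister of Cks2, by 0.55. The cyclin B genes and their kinase differed by 0.52 for Ccnb2, 0.50 for Cdk1 and 0.34 for Ccnb1. The centrosome kinase Nek2, at 0.29, overlapped between the groups, with 0.74 and 1.06 in wild-type and 1.06 and 1.33 in knockout cultures.

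The 2 Cdc25 phosphatases, which strip inhibitory phosphates from Cdk1, had unlike values. Cdc25c had -1.40 and -1.15 in wild-type and -0.89 and -0.82 in knockout cultures, a log2 fold change of 0.42 (limma adjusted p = 0.234). Cdc25b had 4.93 and 5.16 in wild-type and 4.97 and 4.96 in knockout cultures, so that the knockout arrays lay between the wild-type ones (log2 fold change -0.08, SE 0.14, limma adjusted p = 0.693). Its sign depended on the arrays used, at 0.032 without Bob1 wild-type B and -0.31 with the mean over its 3 detected probes, of which the 2 dimmer ones read -0.39 and -0.46. The difference between the phosphatases was not tested.

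All 5 genes of the Aurora kinases and the passenger complex, which corrects faulty attachments and then steers cytokinesis, lay above 0, with a median of 0.64, and 1 passed the threshold. Aurkb, the kinase of that complex, had 1.61 and 1.90 in Bob1 wild-type, 2.42 and 2.57 in Bob1 knockout, 1.75 and 1.94 in BL6 wild-type and 1.81 and 1.74 in miR-146a knockout cultures. The knockout arrays stood clear of all 6 others, and Aurkb rose 1.67-fold (0.74 on the log2 scale, SE 0.15, limma adjusted p = 0.0394). The adjusted p was 0.412 with the slide as a block, where the log2 fold change was 0.61. Its probe lies on chromosome 11 at 68865037 to 68865096 in the array's coordinates, whose assembly the files do not name and which is not GRCm38, since only 1 of the 48 probes falls inside its gene there. Birc5, which encodes survivin, had 6.36 and 6.37 in wild-type and 6.87 and 7.17 in knockout cultures, a log2 fold change of 0.66 (SE 0.15, limma adjusted p = 0.0512). Incenp, the scaffold of the complex, differed by 0.64, Aurka, the kinase of the spindle poles, by 0.53 and Cdca8, which encodes borealin, by 0.51.

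**Figure D3:**
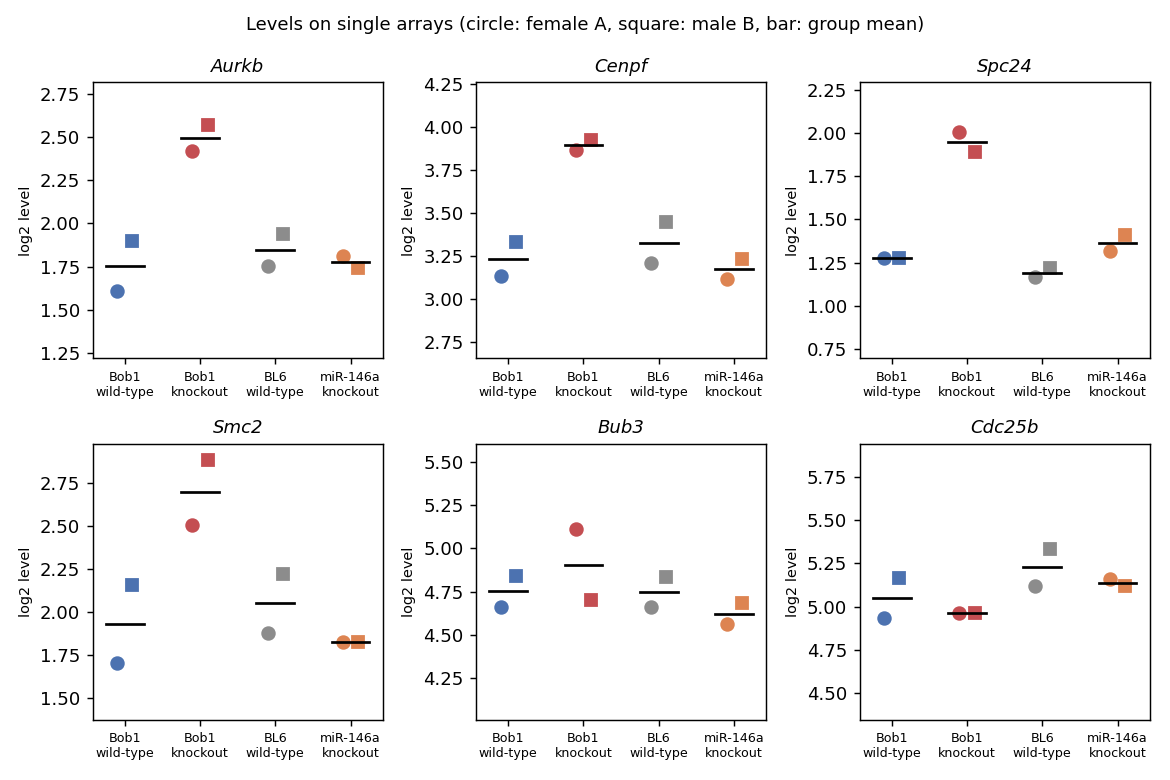
Log2 levels of 6 genes on the 8 arrays, relative to each array's 75th percentile, with circles for the female culture A, squares for the male culture B and a bar at the group mean; each panel has its own level range of equal height. In Aurkb, Cenpf, Spc24 and Smc2 both Bob1 knockout arrays lie above the other 6, and in Bub3 and Cdc25b they do not.

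Among the 8 genes of the checkpoint and of anaphase, 0 passed the threshold, 8 lay above 0 and the median was 0.51. Bub1, a checkpoint kinase, had 1.91 and 2.17 in wild-type and 2.51 and 3.01 in knockout cultures, a log2 fold change of 0.72 (SE 0.23, limma adjusted p = 0.11). A dimmer second probe of Bub1, also above background, gave -0.14, and Bub1 was the only one of 26 genes with several detected probes whose probes disagreed in sign. Bub1b, which encodes BubR1, had 1.46 and 1.79 in wild-type and 2.27 and 2.27 in knockout cultures (log2 fold change 0.65, SE 0.16, limma adjusted p = 0.0641). Ube2c, the ubiquitin-conjugating enzyme of the anaphase-promoting complex, differed by 0.56, the checkpoint kinase Ttk by 0.54 and Cdc20 by 0.48. Espl1 differed by 0.38 and Mad2l1, the checkpoint protein that binds Cdc20, by 0.34. Bub3, the partner of Bub1 and BubR1, had 4.66 and 4.84 in wild-type and 5.11 and 4.70 in knockout cultures, and the groups overlapped (log2 fold change 0.15, SE 0.17, limma adjusted p = 0.569). Its sign turned under quantile normalization (-0.019) and without Bob1 knockout A (-0.052).

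The 7 centromere and kinetochore genes all lay above 0, between 0.43 and 0.69, with a median of 0.63, and 2 passed the threshold. Spc24, a subunit of the Ndc80 complex that grips microtubules, had 1.28 and 1.27 in Bob1 wild-type, 2.00 and 1.89 in Bob1 knockout, 1.16 and 1.22 in BL6 wild-type and 1.32 and 1.41 in miR-146a knockout cultures. The knockout arrays lay well above the other 6, and Spc24 rose 1.60-fold (log2 fold change 0.67, SE 0.11, limma adjusted p = 0.0238). Its adjusted p was 0.25 with the slide as a block, where the log2 fold change was 0.69. Its probe lies on chromosome 9 at 21560478 to 21560537 in the array's coordinates.

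Cenpf, a large protein of the outer kinetochore, had 3.13 and 3.33 in Bob1 wild-type, 3.86 and 3.92 in Bob1 knockout, 3.21 and 3.45 in BL6 wild-type and 3.12 and 3.23 in miR-146a knockout cultures. It rose 1.58-fold (log2 fold change 0.66, SE 0.14, limma adjusted p = 0.0449), and blocking on the slide gave 0.60 (limma adjusted p = 0.413). Its probe lies on chromosome 1 at 191465934 to 191465993 in the array's coordinates. Cenpe, a kinesin that moves chromosomes to the equator, had the largest difference of the role, with 4.35 and 4.64 in wild-type and 5.00 and 5.37 in knockout cultures (log2 fold change 0.69, SE 0.20, limma adjusted p = 0.0925). Cenpa, the histone that marks centromeres, differed by 0.63. The other Ndc80 subunits differed by 0.61 for Nuf2, 0.49 for Ndc80 and 0.43 for Spc25.

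Of the 5 spindle motors and microtubule factors, 0 passed the threshold and all lay above 0, with a median of 0.53. Kif4, a chromosome-bound kinesin, had 2.42 and 2.56 in wild-type and 3.12 and 3.02 in knockout cultures (log2 fold change 0.58, SE 0.13, limma adjusted p = 0.0539). Kif11, the kinesin that pushes spindle poles apart, differed by 0.54 and Tpx2, which activates Aurka at the spindle, by 0.53. Kif2c, which takes microtubules apart at centromeres, differed by 0.39, and Nusap1, a protein that bundles spindle microtubules, had the smallest difference of the role on its brightest probe, with 3.61 and 3.88 in wild-type and 4.11 and 4.0 in knockout cultures (log2 fold change 0.31, SE 0.14, limma adjusted p = 0.2; 0.61 with the mean over its 2 probes).

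Of the 7 genes of condensin and chromosome structure, 0 passed the threshold and all lay above 0, with a median of 0.60. Smc2, the condensin ATPase, had the largest log2 fold change of all 48 genes. Its levels were 1.71 and 2.16 in Bob1 wild-type, 2.51 and 2.88 in Bob1 knockout, 1.88 and 2.22 in BL6 wild-type and 1.83 and 1.83 in miR-146a knockout cultures. The knockout arrays lay above all others, but the SD of the 2 replicates was 0.32 in the wild-type and 0.26 in the knockout, and the log2 fold change of 0.76 (SE 0.22) did not pass (limma adjusted p = 0.0872). Its partner Smc4 differed by 0.62, and the condensin I subunits Ncapg, Ncapd2 and Ncaph by 0.60, 0.58 and 0.43. Top2a, the topoisomerase that untangles sister chromatids, had 2.61 and 3.26 in wild-type and 3.40 and 3.74 in knockout cultures (log2 fold change 0.64, SE 0.25, limma adjusted p = 0.156). Mki67, which encodes the proliferation marker Ki-67, had 6.39 and 6.33 in wild-type and 6.77 and 6.87 in knockout cultures (log2 fold change 0.47, SE 0.12, limma adjusted p = 0.0694).

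Of the 6 genes of the central spindle and cytokinesis, 0 passed the threshold and all lay above 0, with a median of 0.48. Ect2, the exchange factor that switches on RhoA at the division plane, had 2.16 and 2.54 in wild-type and 3.08 and 3.12 in knockout cultures (0.75 on the log2 scale, SE 0.18, limma adjusted p = 0.058). The kinesins of the central spindle differed by 0.63 for Kif20a and 0.35 for Kif23, and their partners Prc1 and Racgap1 by 0.49 and 0.48. Anln, which encodes the ring protein anillin, had -1.59 and -1.18 in wild-type and -1.27 and -1.01 in knockout cultures, which overlapped (0.24 on the log2 scale, SE 0.21, limma adjusted p = 0.467).

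The promoter motifs were set beside these differences as a description. The 29 genes with TTTGAA had a median log2 fold change of 0.53 (0.15 to 0.76) and the 11 without it 0.43 (-0.08 to 0.72), so the ranges overlapped over most of their length. Among those 11, Birc5 (0.66), Cenpe (0.69) and Ccnb1 (0.34) hold the CHR-like letters TTTAAA. The 32 genes with CCAAT had a median of 0.54 (-0.08 to 0.76) and the 8 without it 0.41 (0.24 to 0.66). Single genes went both ways. Espl1 (0.38), with TTTGAA near its start, lay below Cks2 (0.70), which has none in the window. Smc2 (0.76), with TTTGAA, lay highest and Cdc25b (-0.08), without it, lowest. These genes were picked with their values known, and a link between motif and difference was not tested.

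In miR-146a knockout against BL6 wild-type cultures, 0 of the 48 genes changed by limma's adjusted p (0.103% of all features did), and 0 had an unadjusted p under 0.05 (1.52% of all features were higher and 1.33% lower at that level). The median was -0.12, against -0.03 over all features, and log2 fold changes ran from -0.35 (Ncapg) to 0.17 (Spc24). Of the 48 genes, 44 lay below 0 and 4 above, where 42.5% of all features lay above 0. Mki67 had the smallest p, with 6.34 and 6.48 in BL6 wild-type and 6.13 and 6.23 in miR-146a knockout cultures (-0.24 on the log2 scale, SE 0.12, limma adjusted p = 1). The arrays did not overlap in 10 genes: 9, Ccnb2 and Smc2 among them, were lower in the knockout (15.4% of all features), and Spc24 was higher (11.4% of all features). The shift depended on the pair of cultures compared. Knockout B (male) against wild-type A (female), both on slide 1, gave a median of 0.06 with 35 genes above 0. Knockout A (female) against wild-type B (male), both on slide 2, gave -0.29 with 46 below 0. Pairs of the same sex lay on different slides. They gave -0.02 for the female cultures (29 below 0) and -0.20 for the male cultures (41 below 0). No pair shared both slide and sex, so these cannot be told apart here. Without BL6 wild-type B, the median was 0.019. The 9 monocyte and macrophage markers had a median of 0.66 in this comparison, with sums of 8.36 to 8.91 in the knockout and 8.55 to 8.63 in the wild-type, and their part in the result was not tested.

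The 2 wild-type groups lay close together. Bob1 wild-type against BL6 wild-type gave a median of -0.05 for the 48 genes and -0.03 for all features, with 0 genes changed by limma's adjusted p (0.0458% of all features) and 0 at an unadjusted p under 0.05 (0.807% of all features were higher and 1.37% lower). The smallest p belonged to Ccnb2 (-0.29, SE 0.17), Cdc25b (-0.18, SE 0.14) and Prc1 (-0.17, SE 0.13), each with a limma adjusted p of 1.

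**Figure D4:**
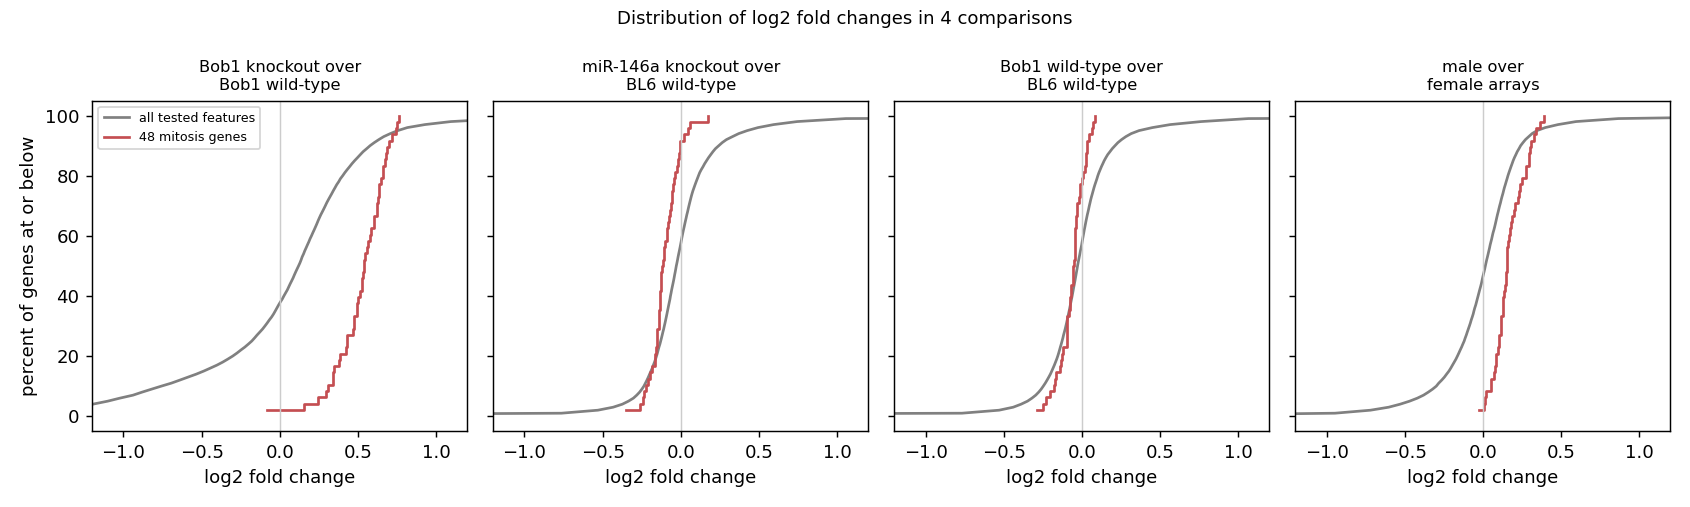
Cumulative share of genes (percent, vertical) at or below a log2 fold change (horizontal) in 4 comparisons, for the 48 mitosis and spindle genes in red and all 17479 tested features in grey. The red curve lies far to the right in the Bob1 comparison (medians 0.54 and 0.12) and slightly to the right between male and female arrays (0.15 and 0.02). It lies slightly to the left in the miR-146a comparison (-0.12 and -0.03) and close to the grey curve between the wild-type groups (-0.05 and -0.03).

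The Bob1 and miR-146a effects share no array, and their difference was tested gene by gene. It was above 0 in all 48 genes, where 62.3% of all features were, with a median of 0.65 against 0.14 for all features. By limma's adjusted p, 0 of the 48 differed (0.715% of all features were higher), and at an unadjusted p under 0.05, 33 of the 48 were higher, where 13.4% of all features were. The smallest p belonged to Mki67 (0.70, SE 0.17, limma adjusted p = 0.0964), Cenpf (0.81, SE 0.20, limma adjusted p = 0.099) and Aurkb (0.81, SE 0.21, limma adjusted p = 0.114). With normexp background correction and quantile normalization, Aurkb and Cenpf passed the threshold (1.09% of all features were called higher). The Bob1 part of this difference compares arrays on different slides. With the slide as a block, 0 of the 48 were called (0.0973% of all features were called higher), and 6 were higher at an unadjusted p under 0.05. There, 47 lay above 0, and the genes' median exceeded that of all features by 0.49, against 0.51 without the block.

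The mitosis genes also varied inside the genotypes, between the male and the female culture. With the group means in the fit, 47 of the 48 were higher on male arrays and Ube2c (-0.02) was not, where 53.6% of all features were higher. The median was 0.15 against 0.02 over all features. By limma's adjusted p, 0 differed (0% of all features were higher and 0.04% lower), and 13 of the 48 were higher at an unadjusted p under 0.05, where 6.04% of all features were higher and 7.63% lower. The count of 13 was lower with any 1 array left out, most so without a wild-type array, and the median was then 0.12 to 0.19. Ccnb1 had the smallest p, with female and male levels of 1.79 and 2.21 in Bob1 wild-type, 2.26 and 2.41 in Bob1 knockout, 1.82 and 2.27 in BL6 wild-type and 1.76 and 2.11 in miR-146a knockout cultures. The male culture was the higher one in all 4 groups (log2 difference 0.34, SE 0.09, limma adjusted p = 0.273). Top2a followed with 0.36 (SE 0.10, limma adjusted p = 0.294) and Nek2 with 0.28 (SE 0.08, limma adjusted p = 0.296). The male minus female median of the 48 genes was 0.26 in Bob1 wild-type (45 above 0), 0.25 in BL6 wild-type (44), 0.10 in miR-146a knockout (35) and 0.08 in Bob1 knockout cultures (30). Marker lists moved in this comparison too, with medians of 0.44 for monocytes and macrophages, 1.11 for stroma and endothelium, -0.74 for T and NK cells, -0.98 for mast cells and basophils and -0.05 for B cell precursors, and their part in the result was not tested. Sex coincides with the culture letter and cannot be told apart from it. Within each sex, Bob1 knockout minus wild-type had a median of 0.63 for the female and 0.42 for the male cultures, above 0 in 48 and 46 of the 48 genes.

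**Figure D5:**
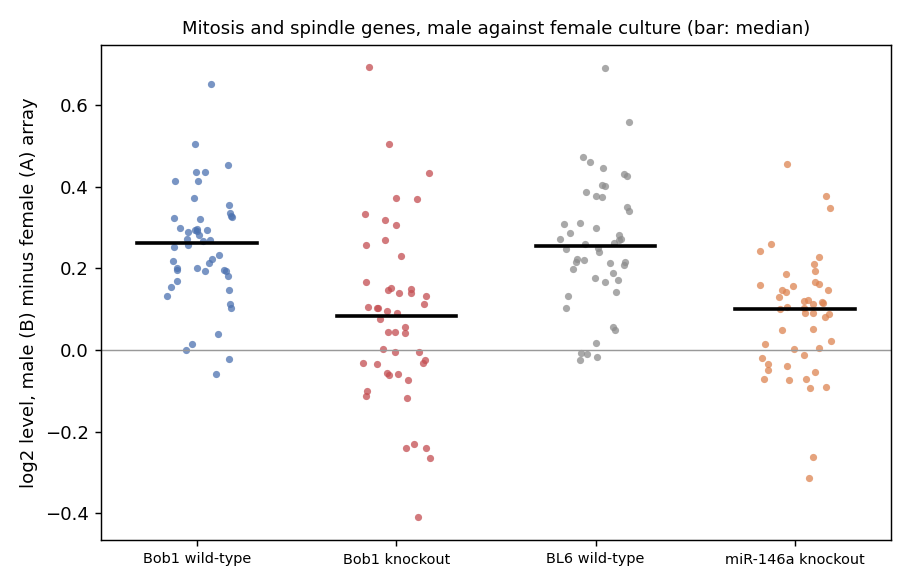
Each point is the log2 level of 1 of the 48 genes on the male array B minus that on the female array A of a group, and the bar is the median. The points lie mostly above 0 in both wild-type groups (medians 0.26 and 0.25) and closer to 0 in the knockout groups (0.08 and 0.10).

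Other genes of the same pathway were taken from lists drawn up with earlier results of these data known. Of 68 further mitosis genes tested, 11 rose and 1 fell in Bob1 knockout cultures (3.52% of all features rose and 3.28% fell), and the median was 0.57, against 0.54 for the 48. Stil, a centriole duplication factor, had the largest rise, from a level of -0.10 ± 0.10 in Bob1 wild-type to 1.0 ± 0.02 in Bob1 knockout cultures (SD, n = 2 each), a log2 fold change of 1.1 (SE 0.17, limma adjusted p = 0.0203). Kif15, a kinesin that helps keep the spindle bipolar, rose by 0.90 on the log2 scale (SE 0.18, limma adjusted p = 0.0391). Nek6, a kinase of the spindle, fell by 0.61 on the log2 scale (SE 0.12, limma adjusted p = 0.0354), from -0.35 ± 0.03 to -0.96 ± 0.07 (SD, n = 2 each).

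The lists that follow are again set beside the 3.52% of all features that rose and the 3.28% that fell. Of 20 regulators of mitotic gene transcription, 2 rose and 0 fell, with a median of 0.40. These were the atypical repressors E2f8 (log2 fold change 0.91, SE 0.15, limma adjusted p = 0.0217) and E2f7 (0.80, SE 0.16, limma adjusted p = 0.0387). Of 13 phosphatases and inhibitors of entry, 1 rose, Pkmyt1, a kinase that restrains Cdk1 (0.65, SE 0.11, limma adjusted p = 0.0263), and the median was 0.23. Of 26 DNA replication genes, which belong to the earlier S phase wave, 1 rose, Tk1, thymidine kinase (0.62, SE 0.13, limma adjusted p = 0.0453), all 26 lay above 0 and the median was 0.53.

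Other parts of the same machines had smaller medians. The 13 subunits and activators of the anaphase-promoting complex had a median of 0.29, the 10 cohesin genes 0.27 and the 10 genes tested from a list of tubulins and Stmn1 0.35, and 0 of each list passed the threshold. At an unadjusted p under 0.05, 5, 3 and 4 of them were higher and 0, 0 and 1 lower, where 18.1% of all features were higher and 10.7% lower. Of 15 genes of quiescence and growth arrest, Cdkn2c, which encodes the Cdk inhibitor p18, rose (0.87, SE 0.17, limma adjusted p = 0.0384), and Btg1, an antiproliferative gene, fell by 0.66 on the log2 scale (SE 0.14, limma adjusted p = 0.042), with a median of -0.05. Whether these lists differ from the 48 genes was not tested.

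In miR-146a knockout cultures, 2 of the 68 further mitosis genes changed, in opposite directions, and the median was -0.08. Hmmr, which encodes a spindle and hyaluronan binding protein, had a level of 2.48 ± 0.05 in BL6 wild-type and -1.63 ± 0.25 in miR-146a knockout cultures (SD, n = 2 each), and fell by 4.11 on the log2 scale (SE 0.15, limma adjusted p = 0.000531). It stayed well above background on all 8 arrays, and the Bob1 wild-type level was 2.27 ± 0.08 (SD, n = 2). Pttg1, which encodes securin, the inhibitor of separase, had 2.96 ± 0.03 in BL6 wild-type and 4.71 ± 0.09 in miR-146a knockout cultures (SD, n = 2 each), a rise of 1.75 (SE 0.13, limma adjusted p = 0.00999). Both genes lie on chromosome 11, as does the miR-146a gene. In the RefSeq gene table of GRCm38.p6, 1 gene lies between Pttg1 and the miR-146a gene, and 17 lie between Hmmr and it. Espl1, the target of securin, differed by 0.06 in the same comparison.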

How the data were processed

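The 8 arrays were Agilent 1-colour arrays of Cy3-labelled RNA from IL-7 cultures of bone marrow. Per the file headers, Feature Extraction 10.5.1.1 quantified the spots, and the deposited intensity used here is its processed signal, background-subtracted and with no normalization between arrays. The flags for signal well above background, saturation and outliers are other deposited columns of the same files. The authors' deposited table of log2 values, for which the submitters' processing notes name limma, served as an alternative, and how those values were normalized is stated nowhere in the labels or files used.

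Control spots and outlier spots were left out. Each array's log2 signal was taken relative to its 75th percentile, which ran from 494 to 782 intensity units, and 60.5% to 66.1% of an array's probes were well above background. A probe entered the test if both arrays of some group had it well above background (26525 probes), with the brightest probe standing for a gene, which gave 17479 features. All arrays entered 1 limma fit with 4 group means and 4 residual degrees of freedom (R 4.3.3, limma 3.58.1, data.table version 1.17.8). P-values were adjusted over all features (Benjamini-Hochberg), with a threshold of 0.05. "Rose", "fell" and "changed" are used of what passed it. SE is limma's moderated standard error. The fit was also run on simulated arrays with independent noise and no slide or sex effect. That run cannot show how the fit handles such effects. Promoter letters were searched with Python 3.11.15 and pandas 2.3.3, and figures drawn with matplotlib 3.10.9.

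The 48 genes, their roles and all gene lists were chosen with earlier results of these data known, so no test of a list was made and lists are described by counts and medians. In each role, the genes past the threshold, the 3 largest log2 fold changes and the smallest were to be named, in the other comparisons the 3 smallest p-values, and per further list the 2 largest rises and falls past the threshold. The genes whose promoters are printed, Plk1, Cks1b, Cdc25c, Nek2, Mki67 and the other role members given by their log2 fold change alone were added after their values were seen, as were the letters TTTAAA. The alternatives were normexp with an offset of 50 and quantile normalization, quantile normalization alone, centring on the median, 3 other rules for probes, the deposited table, the slide or the culture letter as a block, a fit of the compared groups alone and leaving out each array. The comparison within slide 2 was added after seeing the data.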

Additional observations from a re-analysis of the deposited data

How the results depend on the processing

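The count of 3 genes called in the Bob1 comparison moved with most choices, and no setting called a gene lower. It was 11 with normexp and quantile normalization (4.62% of all features rose) and 11 with only probes detected on all arrays (5.09%). In the deposited table it was 8 (3.58%), and with the mean over a gene's probes 7 (3.88%). Without a filter on dim probes it was 0 (27786 features tested, 0.965% rose). It was also 0 with the slide as a block (0.126%), with the compared groups alone (0.641%) and within slide 2 (0.378%). Leaving out 1 array gave 0 to 2. It stayed at 3 with quantile normalization and with centring on the median. The median log2 fold change of the 48 genes, 0.54, was 0.37 with normexp and quantile normalization and 0.37 in the deposited table, and 0.42 to 0.66 with 1 array left out. The cause was not tested. The median of all features, 0.12, was 0.03 with normexp and quantile normalization, 0.06 with quantile normalization and 0.01 in the deposited table, and the genes' median exceeded it by 0.34, 0.34 and 0.36.

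Bub3 turned to -0.019 with quantile normalization and to -0.052 without Bob1 knockout A, and Cdc25b to 0.032 without Bob1 wild-type B (Cdc25b ran from -0.20 to 0.032 with 1 array left out). In the miR-146a, colony and sex comparisons 0 of the 48 genes were called under every setting run. With 1 array left out, the median ran from -0.27 to 0.019 in the miR-146a comparison, from -0.19 to 0.086 between the wild-type groups, and from 0.52 to 0.77 for the Bob1 minus the miR-146a effect. The last was 0.42 with normexp and quantile normalization, where 2 genes were called (1.09% of all features were called higher). It was 0.59 with the slide as a block, 0.47 with quantile normalization and 0.42 in the deposited table.

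Samples of the groups share the letters A and B, which also mark sex, but nothing in the labels says that a letter pairs mice across groups. Deviations of the A arrays from their group means correlated between groups at 0.07 to 0.38 over genes. With the letter as a replicate block, 15 of the 48 genes were called higher in Bob1 knockout cultures, against 3 without it. Of all features, 5.64% rose with the block and 3.52% without it.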
